A study of Mus musculus with 2 samples.

Results

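The regions described here are places of open chromatin in mouse blood neutrophils that lie away from gene starts and whose strongest point, the summit, falls on a lower-case base of the soft-masked mm10 genome. A soft-masked genome writes sequence that a masking program took for repeats or for low-complexity sequence in lower case. The 33147 peaks of the pooled conservative list, which the authors filtered by the irreproducible discovery rate (IDR), merged into 24882 regions where they overlapped, each with the summit of its peak of highest signal value. Of these, 13238 were distal, with a summit over 1 kb from every transcript start of GENCODE M21, and 1197 of the distal regions had a lower-case summit. These 1197 are called members below. The other 12041 distal regions, with an upper-case summit, serve as the comparison.

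The assay was ATAC-seq, which uses a transposase to tag accessible DNA for sequencing. All samples were primary neutrophils taken from C57BL/6J mice, adults of 5 to 6 weeks, out of peripheral blood, with sex not collected and no treatment or altered allele named. The 1 group held 2 libraries, replicates 1 and 2, each started from 50000 cells, with size ranges of 151 to 347 and 151 to 379. The labels give both libraries the same donor record and separate biosample records, and name no purification step. Only peak lists were used and library depth is unknown. With 1 group no comparison between conditions was possible. Of 37 mature neutrophil genes on a marker list, 28 had a region with its summit within 1 kb of a start, and Ly6g, Fpr1 and Fpr2 were among the 9 that had none. Over all protein-coding genes the count was 10137 of 21911 (46.3%). Neutrophil granule genes were below that share, at 10 of 31 (32.3%), with Mpo, Elane, Ltf, Camp, Lcn2 and Mmp9 among those that had none. B cell genes had such a region at 12 of 17, against 4 of 20 T cell genes, 4 of 20 monocyte and macrophage genes, 4 of 16 erythroid genes and 0 of 17 hepatocyte genes. The part of B cells in the values below was not tested.

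Repeats make up a large share of the mouse genome and come mostly from transposable elements, which copied themselves to many places. Some copies carry sequences that transcription factors bind, and rodent B2 short interspersed elements are known for a site of CTCF, the zinc-finger protein that holds chromatin loops and boundaries. In myeloid cells, PU.1 opens distal enhancers at purine-rich sites with a GGAA core, together with C/EBP, RUNX, AP-1 and interferon regulatory factors (IRF). Reads from sequence present in many identical copies cannot be placed with certainty, so what a peak list shows at repeats depends on how far each copy has diverged.

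Most of these summits lay in short lower-case stretches. The lower-case stretch at a member's summit had a median length of 28 bases and ranged from 19 to 2276. It was under 50 bases in 919 members, 50 to 99 bases in 180 and 100 bases or longer in 98. In 793 of 1197 members (66.2%, 95% Wilson interval 63.5 to 68.9%) the summit lay within 10 bases of the end of its stretch. Short stretches are also the rule in the distal genome, with a median of 29 bases and 71.7% under 50 bases, but they hold 25.2% of its lower-case bases, whereas 76.8% of member summits lay in them. No repeat annotation was used, so whether the short stretches are repeats was not tested. Members could not be assigned to named elements and are described by their sequence. All intervals given here cover counting error alone.

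The 3 strongest members show what such a stretch looks like. The sequences are shown because most members are of this kind: a short lower-case stretch, here in capitals, inside otherwise single-copy DNA. They cover the 50 bases on either side of the summit in mm10, read 5′ to 3′ from the RefSeq GRCm38.p6 assembly.
Cacnb2 intron, chr2:14631737-14631837, plus strand: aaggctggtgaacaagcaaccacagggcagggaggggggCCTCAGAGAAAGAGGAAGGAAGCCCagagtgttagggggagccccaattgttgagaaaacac
Between genes, 34.3 kb from the A1cf start, chr19:31834402-31834502, plus strand: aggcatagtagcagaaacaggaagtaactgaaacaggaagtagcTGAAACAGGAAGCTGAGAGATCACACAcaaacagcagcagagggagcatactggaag
Between genes, 59.3 kb from the Gm45261 start, chr1:80402102-80402202, plus strand: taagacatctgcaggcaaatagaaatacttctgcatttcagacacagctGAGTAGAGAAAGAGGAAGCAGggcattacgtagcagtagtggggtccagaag
All the 31-base words of these windows occur once in the genome. The stretches at Cacnb2 and near Gm45261 are purine-rich and both hold AGAGGAA, and the window near A1cf repeats CAGGAAG, once inside its stretch.

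A second set shows the last 11 bases of the commonest match to the CTCF pattern at member summits. This match to the CTCF pattern was the 12-base string CCAGAAGAGGGC, and its last 11 bases, in capitals, stand in the sequences below. The members come from 4 sequence families, chosen after their values were seen, and for each family the example is its strongest member listed in both replicates that holds those 11 bases.
Family 1, Acat1 intron, chr9:53594907-53594965, plus strand: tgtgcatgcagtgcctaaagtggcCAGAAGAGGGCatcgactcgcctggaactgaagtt
Family 2, Catsper2 intron, chr2:121408333-121408391, plus strand: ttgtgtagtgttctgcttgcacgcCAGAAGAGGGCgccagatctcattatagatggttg
Family 3, 5.83 kb from the Nicn1 start, chr9:108284583-108284641, minus strand: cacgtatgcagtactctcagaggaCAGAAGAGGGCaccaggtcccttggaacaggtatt
Family 5, 16.2 kb from the Klhl9 start, chr4:88738621-88738679, plus strand: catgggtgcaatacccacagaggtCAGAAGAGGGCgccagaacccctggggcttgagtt
The examples were chosen for these 11 bases, and some of their flanking letters are also alike, such as cagagg shortly before the capitals in families 3 and 5. The examples of families 1 and 2 hold all 12 bases. Those of families 3 and 5 have another base before the capitals and held no CTCF match.

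Another set shows members that carry the PU.1 letters GAGGAAGT, in capitals, within a shared longer sequence. Families 9, 10, 13 and 15 are shown because they bring the same letters in related surroundings, and they were picked after their values were seen.
Family 9, Ptbp3 intron, chr4:59531357-59531412, plus strand: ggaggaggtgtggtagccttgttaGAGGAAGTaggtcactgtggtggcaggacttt
Family 10, Zswim2 intron, chr2:83929602-83929657, plus strand: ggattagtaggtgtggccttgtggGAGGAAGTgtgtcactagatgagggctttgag
Family 13, 0610040F04Rik intron, nearest start that of Bhlhe40, chr6:108630833-108630888, plus strand: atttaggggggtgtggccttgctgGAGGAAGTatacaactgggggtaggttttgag
Family 15, nearest start that of Slc25a12, chr2:71377561-71377616, minus strand: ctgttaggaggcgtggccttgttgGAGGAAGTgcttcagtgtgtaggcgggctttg
All 4 have the letters GCCTTG shortly before the PU.1 letters.

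The last set gives, for each of 6 factors searched, the strongest member listed in both replicates with a match, with the match in capitals and the sequence read on its strand.
PU.1, 6.66 kb from the 4930426L09Rik start, chr2:19004949-19005049, minus strand: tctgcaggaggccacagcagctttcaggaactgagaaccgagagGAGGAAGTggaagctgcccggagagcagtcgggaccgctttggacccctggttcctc
C/EBP, 76.3 kb from the Cyp7b1 start, chr3:18319564-18319664, plus strand: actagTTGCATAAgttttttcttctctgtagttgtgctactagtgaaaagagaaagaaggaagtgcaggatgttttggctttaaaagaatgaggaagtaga
CTCF, 5.74 kb from the Psma1 start, chr7:114281810-114281910, minus strand: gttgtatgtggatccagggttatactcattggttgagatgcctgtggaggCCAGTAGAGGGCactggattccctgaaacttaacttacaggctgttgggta
RUNX, Cacnb2 intron, chr2:14631737-14631837, minus strand: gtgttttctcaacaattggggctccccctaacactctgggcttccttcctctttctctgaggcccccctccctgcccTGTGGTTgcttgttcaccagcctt
AP-1, Lcmt1 intron, chr7:123429994-123430094, plus strand: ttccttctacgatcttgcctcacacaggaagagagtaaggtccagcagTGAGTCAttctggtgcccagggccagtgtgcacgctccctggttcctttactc
IRF, F830045P16Rik intron, chr2:129489633-129489733, plus strand: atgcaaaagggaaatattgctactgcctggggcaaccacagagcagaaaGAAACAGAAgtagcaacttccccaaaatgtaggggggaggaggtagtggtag
The CTCF, PU.1, AP-1 and IRF matches lie near the middle of their windows, whereas the C/EBP match lies near one end of its window and the RUNX match toward the other.

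Lower-case bases were scarce at summits. Of the 13238 distal summits 9.04% (8.57 to 9.54%) were lower case, against 37.2% of the 2487261180 sequenced bases of the assembled chromosomes that lie over 1 kb from every start, a ratio of 4.12. The share was 13.4% at 50 to 100 bases from the summit, 18.7% at 100 to 250 bases and 27.3% at 1 to 2 kb. At the 11644 regions within 1 kb of a start, the summit was lower case in 4.78% (4.41 to 5.19%).

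**Figure D1:**
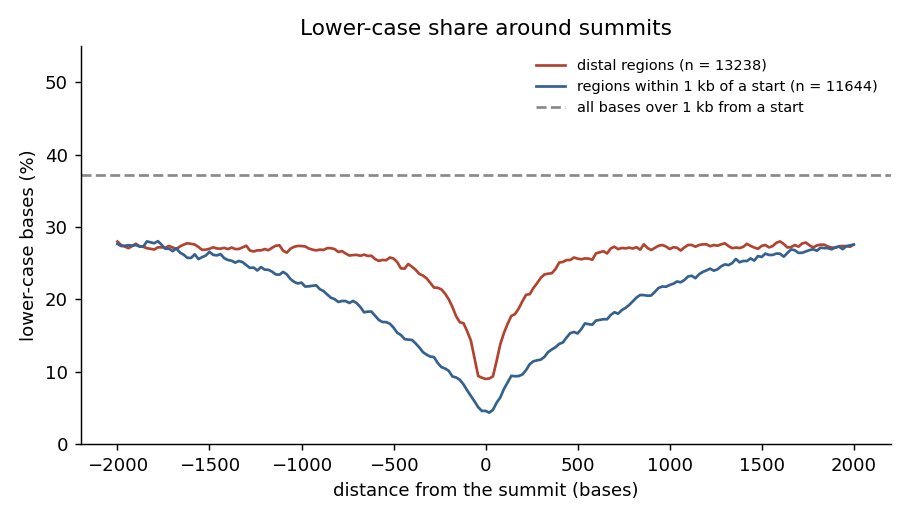
Share of lower-case bases (vertical axis, percent) by distance from the summit (horizontal axis, bases, in bins of 20) for distal regions and for regions within 1 kb of a start. The distal line falls from 27.3% at 1 to 2 kb to 9.04% at the summit, below the dashed line at 37.2%, the share over all bases outside 1 kb of a start.

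The share of lower-case summits hardly moved with the signal value, a peak score from the authors' processing whose definition is not given in the sources. With the distal regions put into 10 equal classes by signal value, the share ran from 8.01% (6.66 to 9.59%) to 10.7% (9.17 to 12.5%), and the intervals of those 2 classes overlapped. It was 9.16% at 1 to 5 kb from a start, 8.91% at 5 to 20 kb, 9.17% at 20 to 50 kb and 9.08% beyond 50 kb. By chromosome it lay between 6.74% on chromosome 6 and 10.6% on chromosome 4, apart from chromosome Y, where 4 of 8 distal regions were members. At the 1 kb threshold, the nearest members had summits 1015 bases from a start (nearest coding gene Tnfrsf14, signal value 7.27), 1020 bases (Supt5, 8.08) and 1035 bases (1500011B03Rik, 9.16). The nearest lower-case summits left out were at 986 bases (Lrrc74a, 8.45), 987 bases (Gm11168, 3.79) and 987 bases (Ggnbp1, 10.2).

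Most members lay in sequence with no exact 31-base copy elsewhere, but whether reads could be placed there was not tested. Every 31-base word of the bases around the summit occurred once in the genome in 957 of 1197 members (79.9%, 77.6 to 82.1%), against 94.9% (94.5 to 95.3%) of the upper-case distal regions. The share fell with the length of the stretch, from 90.4% (88.4 to 92.2%) under 50 bases to 50.6% (43.3 to 57.8%) at 50 to 99 bases and 35.7% (26.9 to 45.6%) at 100 bases or longer. Some word occurred at least 100 times in 28 members (2.34%), against 9 of the 12041 upper-case regions (0.0747%). A tandem run of 20 or more bases, with a unit of 1 to 6 bases, was found in 30 members (2.51%) and in 27 upper-case regions (0.224%). The longest stretch, 2276 bases, lay between genes 35.4 kb from the start of Zfp825, a zinc-finger gene, at chr13:74529050-74529736. Its signal values were 7.99 in the pooled list, 7.17 in replicate 1 and 6.97 in replicate 2, and its commonest word had 278 copies.

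**Figure D2:**
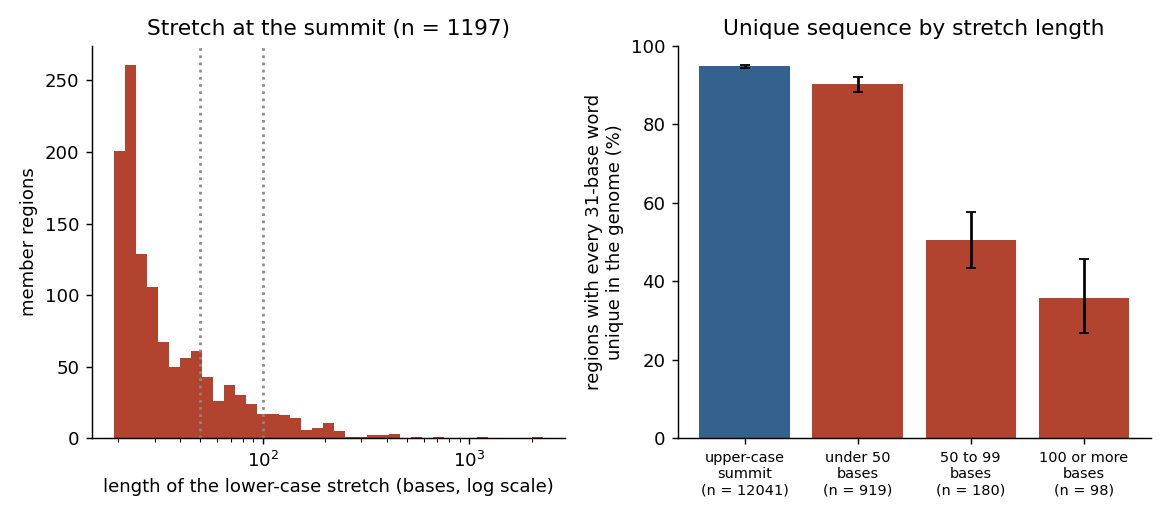
Left, number of members by length of the lower-case stretch at the summit (bases, log axis), with dotted lines at 50 and 100 bases. Right, percent of regions in which every 31-base word around the summit is unique in the genome, with 95% Wilson intervals, which falls from 90.4% to 35.7% across the 3 classes of stretch length.

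Members differed little from other distal regions in strength and place. Their signal value had a median of 10.05 (quartiles 8.06 and 12.8, range 2.40 to 25.6), against 10.29 (8.21 and 13.1) for upper-case distal regions. Their median width was 332 bases against 345. They lay in introns in 627 cases (52.4%), between genes in 510 (42.6%) and in exons in 60 (5.01%), with 48.8%, 45.0% and 6.28% for the upper-case regions. For all 3 places the intervals of the groups overlapped, for introns at 49.5 to 55.2% against 47.9 to 49.7%. The share with a CpG near the summit was lower in members, at 67.8% (65.1 to 70.4%) against 80.6% (79.9 to 81.3%), while the median GC content was 51.5% against 52.5%.

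The 12 strongest members were listed in both replicates, and each had a higher signal value in replicate 1 than in replicate 2. The first, in an intron of Cacnb2, which encodes a subunit of voltage-gated calcium channels, had 25.6 in the pooled list, 23.4 in replicate 1 and 21.2 in replicate 2. The second lay 34.3 kb from the start of A1cf, whose product works in RNA editing, with 25.5, 23.7 and 17.5 in the same order. The third, 59.3 kb from the start of Gm45261, had 24.4, 23.6 and 16.4. These 3 were close to each other in the pooled list and in replicate 1, and the first stood highest in replicate 2.

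The fourth lay 5.83 kb from the start of Nicn1, with 23.7, 21.8 and 16.1, and belongs to family 3 above. The fifth was far from any coding gene, 523 kb from the start of Tyrp1, a pigment enzyme, with 23.5, 22.5 and 18.5. The sixth lay in an intron of the Fc receptor-like gene Fcrl5, with 22.2, 21.7 and 12.7, the lowest replicate 2 value of the 12. The remaining 6 lay near Psma1, a proteasome subunit, near 4930426L09Rik, Dennd5a and, at 50.4 kb, Creb1, a cyclic AMP response factor, and in introns of Mcc and Ly75, an endocytic receptor. Their pooled values ran from 21.4 at Ly75 to 22.1 at Psma1. The stretches of these 12 members were 21 to 43 bases long.

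The replicates listed very different numbers of members. Replicate 1 listed 1046 of 1197 (87.4%), replicate 2 listed 460 (38.4%), and both listed 453 (37.8%, 35.1 to 40.6%). The share in both was 56.5 percent over all regions of the list and 40.7 percent over all distal regions, so the members' share was near that of distal regions. For the upper-case distal regions it was 41.0% (40.2 to 41.9%), with an interval that overlapped the members'. With the less strict list of each replicate, 1077 members (90.0%) were listed in both, against 91.1% of the upper-case regions. By stretch length the share in both was 40.4% under 50 bases, 28.3% at 50 to 99 bases and 31.6% at 100 bases or longer.

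Among the 453 members in both, the signal value was higher in replicate 1 for 333, with medians of 11.98 in replicate 1 (2.78 to 23.7) and 10.3 in replicate 2 (3.08 to 21.2). The ranges overlapped over nearly their whole length. The replicates placed the summit of such a member a median of 10 bases apart. This mattered for membership: the replicates' own summits were both lower case in 274 of the 453 (60.5%, 55.9 to 64.9%), and both upper case in 16. The share with both lower case was 55.3% for stretches under 50 bases, 82.4% at 50 to 99 bases and 87.1% at 100 bases or longer.

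**Figure D3:**
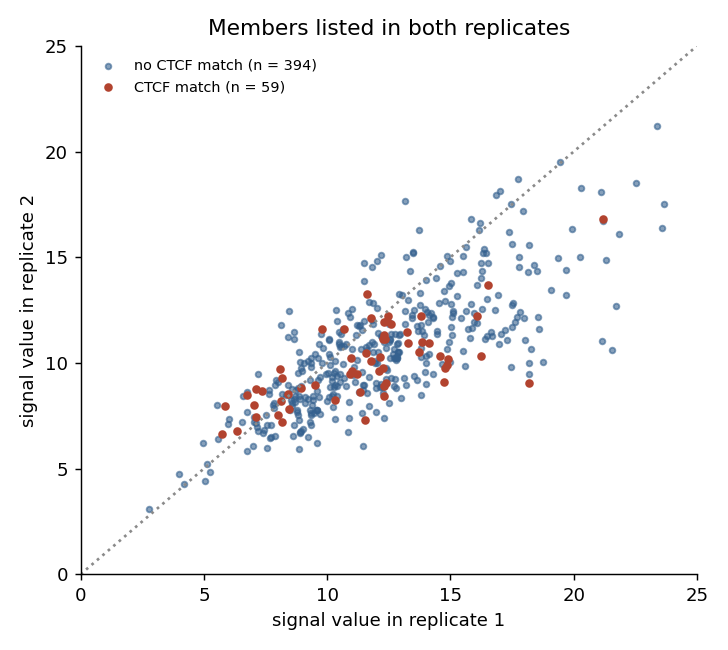
Signal value in replicate 1 (horizontal axis) and replicate 2 (vertical axis) of the 453 members listed in both, each point 1 member, with members that hold a CTCF match in red. More points (333) lie below the dotted line of equal values than above it, and the 59 members with a CTCF match lie among the others.

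Of 24 motifs searched as letter strings on both strands, CTCF and PU.1 had the widest margins in percentage points by which members exceeded upper-case distal regions. The CTCF margin rested on a single string, described below. CTCF, searched by its pattern, matched within 50 bases of the summit in 270 members (22.6%, 20.3 to 25.01%), against 16.9% (16.3 to 17.6%) of upper-case distal regions and 11.6% of all regions. The PU.1 letters GAGGAAGT were in 146 members (12.2%, 10.5 to 14.2%), against 8.48% (7.99 to 8.99%) and 6.15%. Both were rare in windows of the same length 1 kb from members that overlapped no listed region, at 0.733% for CTCF and 0.561% for PU.1 of 2319 windows. In the 710 of these windows whose middle base was lower case, the shares were 1.69% (0.969 to 2.93%) and 0.423% (0.144 to 1.23%).

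The letters GAAANNGAA of IRF, which drives interferon-response genes, were in 5.35% (4.21 to 6.77%) of members, against 3.55% (3.23 to 3.89%) of upper-case distal regions and 3.002% of all regions. The short ETS letters CAGGAAG, which share AGGAAG with those of PU.1, were in 12.6% against 12.2%, with 9.81% of all regions. The RUNX letters TGTGGTT were in 5.85% against 5.86%, with 3.96% of all regions. A pair of strings was less frequent in members: TTGCNNAA of C/EBP, the family that drives granulocyte development, at 5.01% (3.91 to 6.40%) against 6.71% (6.28 to 7.17%), and TGANTCA of AP-1 at 4.93% (3.84 to 6.31%) against 6.92% (6.48 to 7.39%). Over all regions these were 5.08% and 4.74%. The intervals of members and upper-case regions overlapped for C/EBP and not for AP-1. In the lower-case windows 1 kb away the shares were 3.66% for IRF and RUNX, 3.52% for ETS, 2.25% for C/EBP and 2.54% for AP-1. The intervals of those windows overlapped the members' for IRF, RUNX and AP-1, and not for ETS and C/EBP. At least 1 of these 7 motifs was present in 691 members (57.7%) and in 6092 upper-case regions (50.6%).

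**Figure D4:**
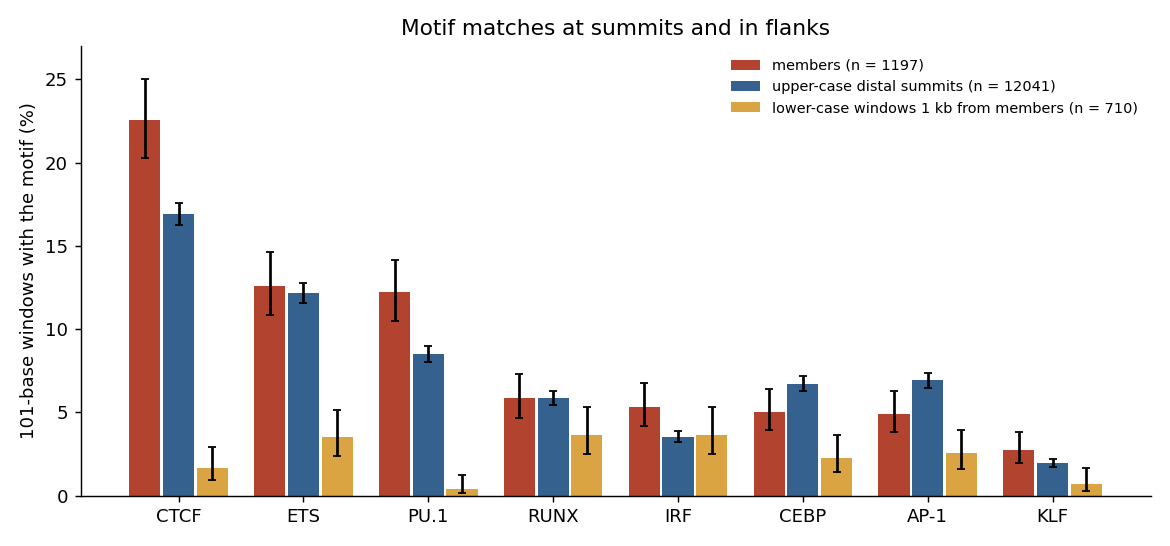
Percent of windows of 50 bases on either side of the summit that hold a motif (vertical axis) for 8 motifs, in members, in distal regions with an upper-case summit and in windows 1 kb from members whose middle base is lower case, with 95% Wilson intervals. CTCF reaches 22.6% and PU.1 12.2% in members, against 1.69% and 0.423% in the lower-case windows nearby.

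The motifs also differed in where they lay. The CTCF match nearest the summit had its centre a median of 10 bases away in members and 12.5 in upper-case regions, and it lay wholly inside the lower-case stretch in 220 of 270 members (81.5%, 76.4 to 85.7%). The PU.1 match was a median of 13.5 bases away, against 19.5 in upper-case regions, and inside the stretch in 91 of 146 (62.3%, 54.2 to 69.8%). For IRF the match lay inside the stretch in 35 of 64. C/EBP showed the opposite: its median distance was 31.5 bases in members and 22.5 in upper-case regions, and 5 of 60 matches (8.33%, 3.61 to 18.1%) were inside the stretch. RUNX, at 18 of 70, and AP-1, at 12 of 59, also lay mostly outside it. The rule places the summit inside lower-case sequence, so which letters can stand there depends on which sequences the mask covers.

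A purine-rich strand was common at these summits. Over the 12 bases on either side of the summit, 220 members (18.4%, 16.3 to 20.7%) had at least 80% purines on one strand, against 337 upper-case regions (2.80%, 2.52 to 3.11%). Lower-case windows 1 kb away reached 13.5% (11.2 to 16.2%) and upper-case ones 2.36%, so the share went with the mask in flanks outside listed regions as well. The string AGAGGAA, chosen after it was seen in the strongest members, was in 206 members (17.2%, 15.2 to 19.5%), in 12.7% (12.2 to 13.3%) of upper-case distal regions and in 9.55% of all regions. Of the 12 strongest members 3 held it. The string shares GAGGAA with the PU.1 letters, so a window can count for both. In flanks it was in 3.66% of lower-case windows and 3.79% of upper-case windows. Unlike the purine share, this string was not more frequent in lower-case flanks than in upper-case ones.

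A single sequence made up much of the CTCF count. The string CCAGAAGAGGGC was in 122 members (10.2%, 8.60 to 12.04%), which is 45.2% of the members with a CTCF match, and in 64 upper-case distal regions (0.532%), 3.14% of those with a match. A CTCF match without this string was in 148 of 1197 members. Of the 12041 upper-case regions 2037 had a match, 64 of them with the string. Outside the string, matches were thus less frequent in members than in upper-case regions. The string has 50566 copies in the assembled chromosomes, of which 99.6% are lower case, so the rule itself sends regions centred on it to the members. Over all 24882 regions 216 (0.868%) held it near the summit, a number of regions equal to 0.427% of the copies. The part of the genome that the windows at summits cover was not set beside this share. It therefore does not show whether the string is rare or frequent at summits. The next 2 instances, CCAGCAGAGGGC and CCACTAGAGGGC, were in 32 and 13 members and in 135 and 117 upper-case regions. They have 1997 and 1152 genome copies, of which 44.3% and 45.5% are lower case.

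Members with CCAGAAGAGGGC were narrow, like other regions with a CTCF match, and were seldom listed in replicate 2. Their median width was 251.5 bases, their median signal value 9.43, and 18 of 122 (14.8%, 9.54 to 22.1%) were listed in both replicates. Median width was 266.5 bases in members with another CTCF instance, 279 in upper-case regions with a match and 362 in members without one. Members with another CTCF instance were listed in both in 41 of 148 cases (27.7%) and members without a match in 394 of 927 (42.5%, 39.4 to 45.7%). In the less strict lists the shares in both were 80.3% (72.4 to 86.4%), 82.4% and 92.4% (90.6 to 94.0%). Upper-case regions with a CTCF match were also listed in both less often than those without, at 32.1% (30.1 to 34.1%) against 42.9% (41.9 to 43.8%). Among members in both replicates the CTCF share was 13.02% (10.2 to 16.4%), close to the 13.2% (12.3 to 14.2%) of upper-case regions in both, while the PU.1 share was 15.0% (12.02 to 18.6%) against 8.97% (8.20 to 9.80%).

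Width moved with these shares. Of members under 300 bases wide, those with a CTCF match were listed in both replicates in 41 of 209 cases (19.6%, 14.8 to 25.5%) and those without in 46 of 268 (17.2%, 13.1 to 22.1%), beside 19.8% of the upper-case distal regions of that width. At 300 to under 400 bases the shares were 14 of 40 (35.0%) and 130 of 291 (44.7%). At 400 bases or wider they were 4 of 21 (19.0%, 7.67 to 40.0006%) and 218 of 368 (59.2%, 54.1 to 64.1%). Under 300 bases the intervals with and without a match overlapped, and at 400 bases or wider, where few members had a match, they did not. The part of library depth was not tested.

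**Figure D5:**
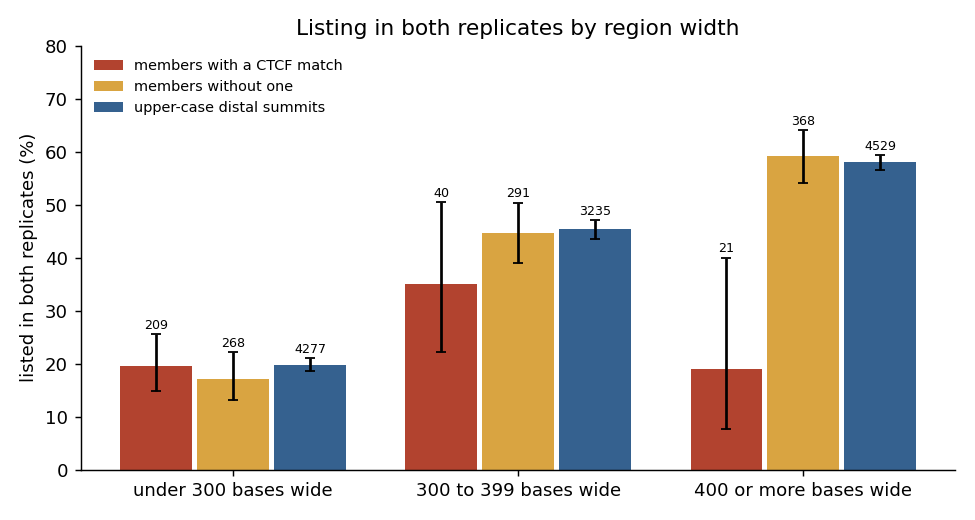
Percent of regions listed in both replicates (vertical axis) by width of the region, for members with and without a CTCF match and for distal regions with an upper-case summit, with 95% Wilson intervals and the number of regions above each bar. Under 300 bases the 3 bars stand between 17.2% and 19.8%, and at 400 bases or wider members with a match are at 19.0% and the other 2 bars at 59.2% and 58.0%.

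Comparing member sequences with each other over 100 bases on either side of the summit put 130 members (10.9%, 9.22 to 12.7%) into 16 families of 5 to 19 members. Families were built from the strongest member down, at 70% identity over 80 bases with the summit inside the alignment. Median identity to a family's strongest member ran from 71.2% in family 13 to 83.1% in family 16, so most copies were far from identical. Of the 114 members that joined a family, 71 (62.3%) had their summit within 20 bases of the place where the strongest member had its own. Listing in both replicates was less frequent in families, at 29 of 130 (22.3%), than for the 1067 other members (39.7%), while the median signal values were 10.11 and 10.01.

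Most of the larger families carried the CTCF pattern. Family 1 had 19 members on 12 chromosomes, 15 of them in introns, and 16 held a CTCF match, 12 of them as CCAGAAGAGGGC. Family 2 had 13 members, of which 12 held a match. In family 3 it was 5 of 10, in family 4 it was 8 of 9, in family 6 it was 7 of 9 and in family 8 it was 6 of 8, while none of the 8 members of family 7 held one. In family 5 all 9 members held the last 11 bases of the string, and 6 held all 12. Across all families 70 of 130 members (53.8%) held a CTCF match.

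A smaller group carried PU.1 letters instead. GAGGAAGT was in 7 of the 8 members of family 9, 6 of the 7 of family 10 and 4 of the 5 of family 15, which is 17 of 20 together. It was also in 2 of the 5 members of family 11, 2 of the 5 of family 13 and 1 of the 8 of family 7. None of the members of families 1 to 6 held it. For families 9, 10 and 15 the strongest members in both replicates are given here. The one in Zswim2 had signal values of 20.7 in the pooled list, 21.5 in replicate 1 and 10.6 in replicate 2. The one in Ptbp3, a splicing regulator, had 17.2, 16.5 and 11.3, and the one near Slc25a12, a mitochondrial carrier, had 12.6, 11.0 and 10.7. With the 4 bases before it, the commonest form in members was GTTGGAGGAAGT, in 14 members and 5 upper-case regions, with 8618 genome copies of which 94.6% are lower case. In all 60 forms of these 12 bases, which differ only in the 4 bases before the fixed PU.1 letters, were found among the 146 members with those letters.

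Matches to other sequences followed the length of the stretch. Some other distal window of the list matched at 70% identity over 80 bases for 368 members (30.7%, 28.2 to 33.4%) and for 592 upper-case regions (4.92%, 4.54 to 5.32%). The share was 19.6% for stretches under 50 bases, 61.1% at 50 to 99 bases and 79.6% at 100 bases or longer. The few mobile elements and related genes annotated by RefSeq or GENCODE were matched more loosely, at 70% identity over 50 bases. The summit could lie outside the alignment. Of these, a B1 element (B1_Mus2) matched 11 members (0.919%) and 13 upper-case regions (0.108%). Bc1 and the 7SL gene Rn7s1 matched 1 member each and 3 upper-case regions each, and AmnSINE1, LTRIS4 and MuRRS4-int matched none of either. Transfer RNA genes overlapped 2 members (0.167%) and 51 upper-case regions (0.424%).

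RefSeq's annotated enhancers overlapped 7 members (0.585%) and 54 upper-case distal regions (0.448%). One is a B cell enhancer of Pax5, the B cell identity factor, at chr4:44672617-44673191, with a signal value of 6.56. The others are VISTA enhancers, recorded in tissues such as neural tube, brain, nose, liver, limb and eye. The strongest of them, at chr6:51857931-51858198 near Skap2, is recorded in neural tube and had 13.3. Another at chr9:41950726-41951483 near Sorl1, a sorting receptor, is recorded in limb and eye and had 11.3.

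A larger share of mature neutrophil genes than of all protein-coding genes had a member nearby, and also a distal region of any kind. Of all 21938 protein-coding genes, 1878 (8.56%) had a member within 50 kb of their 5′ start, and members made up 9.35% of all pairs of a gene and a distal region at that distance. Some distal region lay near 34 of the 37 mature neutrophil genes (91.9%), against 10455 (47.7%) of all protein-coding genes. A member lay near 7 of the 37 (18.9%, 9.48 to 34.2%), and members were 7 of 121 pairs (5.79%). For the 335 genes of all 16 lists together the figures were 39 genes (11.6%, 8.63 to 15.5%) and 47 of 681 pairs (6.90%). These genes thus had more distal regions than the average gene, and members took no larger part of them.

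Among mature neutrophil genes, the receptors for formylated peptides Fpr1 and Fpr2 shared 1 member, at chr17:17860176-17860449, with signal values of 13.5 in the pooled list, 11.9 in replicate 1 and 10.9 in replicate 2. The chemokine receptor gene Cxcr2 had one 42.2 kb away with a CTCF match, at 11.6 in the pooled list and 11.8 in replicate 1, and not listed in replicate 2. Of 31 granule genes 4 had a member, led by those near Lyz2, lysozyme (9.63), Padi4, the enzyme that citrullinates histones (8.14), and Hp, haptoglobin (6.46), none listed in replicate 2. Of 8 genes of the NADPH oxidase, which makes the respiratory burst, 3 had one, among them Ncf1 (7.16) and the regulatory GTPase Rac2 (6.61). The one near Ncf1 held a CTCF match, and neither of these was listed in replicate 2.

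Of 33 myeloid transcription factor genes 3 had a member. The one in an intron of Ets1 had 12.01, 11.7 and 9.32 in the pooled list, replicate 1 and replicate 2, the one in an intron of Klf13 had 8.97, 8.66 and 8.31, and the stronger of those near Cebpb, 3.58 kb from its start, had 6.90, 6.36 and 6.79. These 3 were listed in both replicates, against 37.8% of all members, and so few members do not set the gene lists apart. Among 27 genes of the inflammatory and NF-kB response 5 had a member, led by Zfp36, which destabilizes cytokine messages, with 3 members, the strongest at 13.4, 12.3 and 8.42. Icam1, an adhesion molecule, had one at 8.84, 8.02 and 9.12, and Relb one at 8.83 and 9.27, not listed in replicate 2.

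Of 29 interferon-response genes 1 had a member, Ddx58, the sensor of viral RNA. That member lay 47.8 kb away and held PU.1 letters. It had 14.5 in the pooled list and 14.1 in replicate 1, and was not listed in replicate 2. Members were 1 of the 69 pairs of these genes with a distal region (1.45%). Of 19 genes of apoptosis and survival 2 had one, the death effectors Bax (9.41) and Bak1 (7.85), neither listed in replicate 2.

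Counts for other cell types ran from none to 4 genes a list. B cell genes had a member in 4 of 17 cases, with Cd22 at 12.3, Blk at 8.65 and Fcer2a at 8.53, the last 2 with PU.1 letters. Of these named members, only the one at Blk was listed in replicate 2. T cell genes had one in 3 of 20, with Lck at 13.5, 1.77 kb from its start, and Ccr7 at 12.5 among them. The members near Lck and Ccr7 were listed in both replicates. The macrophage receptor genes Adgre4 and Adgre1 had one each, at 15.7 and 11.0, and only that of Adgre1 was listed in replicate 2. The eosinophil granule genes Prg2 and Prg3, which lie side by side, each had 3 members among 4 distal regions within 50 kb. The strongest, the same for both, was at 10.9 in an intron of P2rx3 and was not listed in replicate 2. Among platelet genes, Gp1ba had one at 16.1, with 17.7 in replicate 2 above the 13.2 of replicate 1. Itgb3 had one at 9.59 and Gp6 one at 6.55, neither listed in replicate 2. Natural killer, erythroid, hepatocyte and neuron genes had none, which for the 15 natural killer genes has a Wilson upper bound of 20.4%.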

How the data were processed

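ATAC-seq peak lists of 2 libraries of mouse blood neutrophils were used as deposited, on mm10 per the authors' deposited notes on the files. In the deposited lists column 7 is a signal value, a score with no stated definition, and column 8 is a −log10 p of the authors' processing, which was read with the peaks but not analysed. Column 10 gives the summit. The IDR filter and the pooling of replicates are known from the authors' names of the lists. Which aligner and peak caller were used, and how read shift and reads with several matches were treated, is not stated in those sources. They bear on every count at repeated sequence. Depth is unknown, which limits what the lists of the 2 replicates can show.

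Merging, masking, word counts on both strands of the 21 assembled chromosomes (31 bases) and motif searches were done with Python 3.11.15 scripts (numpy 2.4.6, pandas 2.3.3, numba 0.67.0) on RefSeq GRCm38.p6, whose lower case was taken as the mask. The masking program of that copy is not stated, and its mask may differ from other copies of mm10. Families used blastn (BLAST+ 2.17.0) with no low-complexity filter. Steps were tested on simulated sequences with planted answers. Intervals are 95% Wilson intervals. No test was run, because 1 group of 2 libraries has no comparison of conditions. The members, gene lists, motifs and alternatives were chosen with earlier results of these data known.

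Named in the text were the 12 strongest members, for each gene list up to 3 genes with the strongest member within 50 kb, and for each of 6 motifs the strongest member listed in both replicates, with no sequence from chromosome 18. The rule also covered the 8 largest families, of which families 1, 2, 3 and 5 are shown. Families 9, 10, 13 and 15 were added after their values were seen. Some genes that this rule names are not reported here. Of 338 listed genes, 335 matched a protein-coding gene. Alternatives are given at the end, and those added after the data were seen are named there.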

Additional observations from a re-analysis of the deposited data

How the results depend on the processing

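With 56 alternative values over all results, 23 stayed within the error of the value given (its Wilson interval, or 1 SD of the replicates for the median) and 33 moved out of it. The lower-case share of 9.04% was 9.80% in the other pooled IDR list, 10.5% in the pooled replicated list, 8.55% for regions at or above the median signal value, 9.92% with the middle base of the region and 3.91% where at least 0.5 of the bases had to be lower case; with 1 replicate's list alone it was 8.60 to 9.71%. The share of members in both replicates was 90.0% with the less strict lists, and 38.4 to 87.4% for listing in a single replicate. The median signal value was 8.73 in the other pooled IDR list and 9.24 to 10.1 in single-replicate lists. Unique members fell to 54.1% with 24-base words and 61.5% over whole regions. The upper-case distal regions stood at 90.0% and 80.5% with these settings. The share in families was 0.919% at 80% identity and 3.51% at 120 aligned bases, so the families rest on the loose setting. CTCF was at 13.02% in members listed in both replicates and 18.7% in members of no family, an alternative added after the data were seen, as were the lower-case flanks. PU.1 was at 15.0% in members in both and 15.5% within 100 bases of the summit. Listed genes with a member were 21.2% within 100 kb and 4.48% for members in both. The cause of these moves was not tested. By construction, shorter words can only lower the count of unique members. Wider windows can only raise the counts of motif matches and of genes with a member. Motif shares in members listed in both replicates are not fixed in this way. Unknown depth limits every statement on replicate 2.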
